A study of Homo sapiens with 30 samples.

Results

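DEAD and DEAH box proteins are helicases that use ATP to unwind or remodel RNA and RNA-protein complexes. They act at nearly every step in the life of an RNA, from splicing and ribosome assembly to export, translation and decay. Most share a helicase core with conserved motifs, of which motif I binds ATP. The sites described here are the edited positions of the deposited tables that lie in exons of protein-coding genes whose symbol starts with DDX or DHX and a digit in GENCODE release 29 (GRCh38). They number 3544 of 382978 sites and lie in 46 of 55 such genes, 31 DDX genes with 2389 sites and 15 DHX genes with 1155. No site was listed in DDX25, DDX3Y, DDX4, DDX43, DDX53, DDX58, DDX60, DDX60L and DHX58. These include the innate immune sensor DDX58 (RIG-I) and the germ line helicase DDX4. The letters of motif I were found in the translated reference transcripts of 41 of the 46 genes and not in those of DDX11, DDX19A, DDX19B, DDX31 and DHX32. DDX11, a DNA helicase of sister chromatid cohesion, carries the name without acting on RNA as its main substrate.

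The study measured A-to-G changes in poly(A) RNA of HEK 293T, a cell line from human embryonic kidney, 60 h after transfection with RNA editing enzymes. These deaminases turn adenosine into inosine, which sequencing reports as G, and each value is the share of reads with G at a site. Of the 30 samples, 16 expressed a deaminase domain (DD), that of ADAR1 or of ADAR2, joined to MCP, a phage coat protein with affinity for MS2 hairpins. Each fusion had either a nuclear localisation (NLS) or a nuclear export (NES) signal. Its domain was wild type or had glutamine in place of a glutamate, E1008Q for ADAR1 and E488Q for ADAR2 (together E-to-Q), and each was tested with and without an MS2 adRNA guide. Full-length ADAR2, as E488Q or wild type, made up another 4 samples, each with or without a GluR2 adRNA. The last 2 carried the E488Q domain of ADAR2 on Cas13b, in the presence or absence of its gRNA. The controls were GFP, the 3 guides each alone, and untransfected cells, of which 4 runs of 1 library were sequenced. Each deaminase condition was 1 library, so there was no replicate error, and SDs below run over libraries or over matched pairs of libraries. The amounts of the expressed proteins, the expression of the target genes and the read depth per site were not in the tables. The identity of the cell line could therefore not be set against marker genes, and a share listed as 0 may come from few reads.

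Calls in a library required an adjusted p below 0.01 in the authors' deposited table together with a share above the mean of untransfected runs 2, 3 and 4. Every listed helicase site had such a p in some library, so being listed is not a result. None of the 3544 sites was called in any of the 7 control samples, 3 of them the untransfected runs that set the mean. Over all sites the calls were 0, 0.000261% and 0.00104% in untransfected runs 2, 3 and 4 and 0.00157% in GFP. They were 0.00366% with MS2 adRNA alone, 0.0047% with GluR2 adRNA alone and 0.00601% with Cas13b gRNA alone. The absence of calls at the helicase sites is thus near the background. The untransfected mean over the helicase sites was 0.103%, with 4.96% at the highest site, and 2317 sites were at 0 in all 3 runs used. Exons of another gene overlapped 251 of the sites, 116 of them in DDX39B. No source states that the kit keeps strand, so reads of overlapping genes could not be told apart. Near-identical copies make the counts of DDX11, DDX19A and DDX19B, DDX39A and DDX39B, and DDX3X uncertain.

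The following windows from the GENCODE transcripts show the sites on which the results turn, written 5′ to 3′ on the transcript strand, with the edited adenosine in capitals. The first 4 had high shares under nearly all or all MCP fusions, the next 2 change the ATP-binding lysine, and the others mark the contrasts between enzymes, signals and carriers described further on. Residues are numbered on the reference transcript of each gene, and positions are on GRCh38.
DHX34 3′ UTR, chromosome 19, position 47382172, plus strand: cagcccaggactAggggcaggactc
DDX6 3′ UTR, chromosome 11, position 118748643, minus strand: gaaactgcctttAgccacactcctg
DHX8 N840S, chromosome 17, position 43513378, plus strand: tgattgccaccaAtatcgcagagac
DDX17 S649G, chromosome 22, position 38486180, minus strand: tatggcaccagtAgctatacagctc
DDX41 K231R, chromosome 5, position 177515022, minus strand: cgggttcaggcaAgacactggtgtt
DHX16 K428R, chromosome 6, position 30664835, minus strand: caggctcagggaAgaccacccagat
DDX23 E155E, chromosome 12, position 48839859, minus strand: aaaggctgaggaAgaagctgaggct
DDX23 K245R, chromosome 12, position 48837543, minus strand: aggataagagcaAggaactgcatgc
DHX38 Q904R, chromosome 16, position 72107450, plus strand: ccctcggggtgcAggacctgctgca
DHX9 Q280Q, chromosome 1, position 182858580, plus strand: aaacctctctcaAgatttagagcat
DDX11 3′ UTR, chromosome 12, position 31104663, plus strand: gaccccagagaaAggggctgtggtc
DDX39B *429W, chromosome 6, position 31530435, minus strand: aacagacacggtAgaagactcgccc
DDX17 retained intron, chromosome 22, position 38491774, minus strand: gactattcaaacAgagggagaggag

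Helicase sites were edited in all 22 deaminase libraries, most of them in few. Of the 3544 sites, 1296 (36.6%) were called in exactly 1 library, against 36.5% of all sites. Calls in 11 or more of the 22 libraries were made at 204 sites (5.76%), against 6.63% of all sites. Calls in all 22 libraries were made at 2 sites, against 0.13% of all sites, and both lie in the last coding exon of DDX17, at S649G and Y645C. DDX17 is a nuclear helicase of splicing and transcription. These shares were near the background, so the family was not marked by how widely its sites were called. A list of 19 RNA helicases with other names was edited in 18 genes at 1207 sites, of which 82 (6.79%) were called in 11 or more libraries. The mean share over the 22 libraries was 3.24% at the helicase sites described here, 3.69% at those other helicases and 4.23% at all sites.

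The library with most calls at helicase sites was MCP-ADAR1 DD (E1008Q)-NES without guide, with 1904 (53.7% of the sites, against 59.2% of all sites), followed by the same fusion with guide, with 1635 (46.1%, against 51.1%). Full-length ADAR2 (E488Q) with guide made 1300 calls (36.7%, against 32.7%), and without guide 269 (7.59%, against 6.72%). Full-length wild-type ADAR2 made 159 calls with guide (4.49%, against 4.85%) and 50 without (1.41%, against 1.5%). The Cas13b fusion went the other way with its guide, with 461 calls (13.0%, against 12.9%), and had 1105 without it (31.2%, against 29.5%). The other MCP-ADAR1 fusions lay between 194 and 1141 calls. Wild-type NES had 1023 with guide (28.9%, against 26.4%) and 1141 without (32.2%, against 30.3%). Wild-type NLS had 292 with guide (8.24%, against 7.45%) and 194 without (5.47%, against 5.35%), and E1008Q-NLS had 995 with guide (28.1%, against 28.9%) and 836 without (23.6%, against 23.5%). The MCP-ADAR2 fusions made 33 to 322 calls. E488Q-NLS had 322 with guide (9.09%, against 9.94%) and 227 without (6.41%, against 7.32%), and E488Q-NES had 298 with guide (8.41%, against 11.2%) and 264 without (7.45%, against 9.21%). Wild-type NES had 167 with guide (4.71%, against 5.29%) and 81 without (2.29%, against 2.48%), and wild-type NLS had 44 with guide (1.24%, against 1.24%) and 33 without (0.931%, against 0.982%). The ranking of libraries was close to that over all sites but not the same. Wild-type MCP-ADAR1 NES with guide, for example, was above E1008Q-NLS with guide at helicase sites and below it over all sites. The largest departures from the background were the lower shares called by the E1008Q-NES fusions and the higher share called by full-length ADAR2 (E488Q) with guide.

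**Figure D1:**
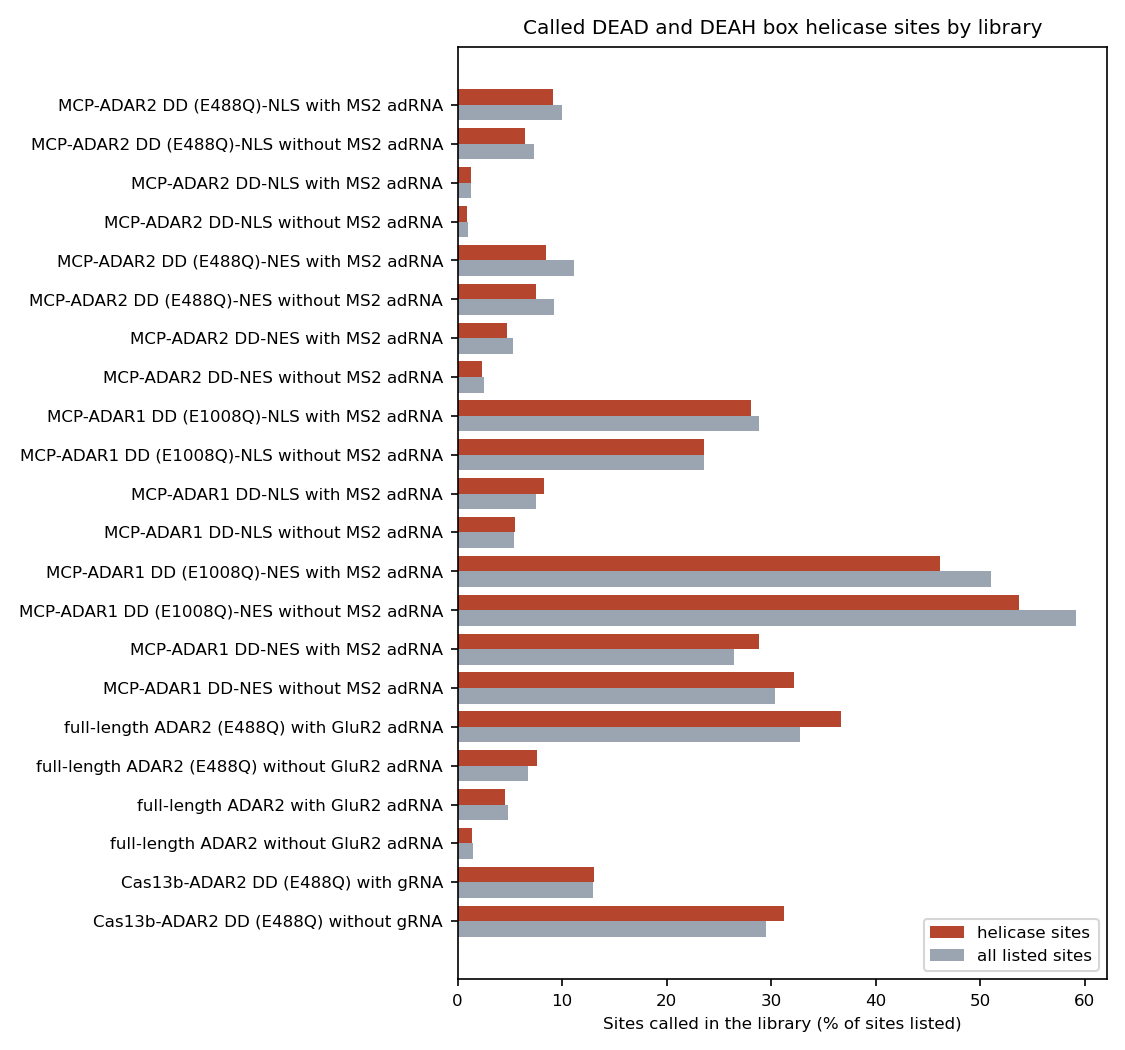
Share of sites called (percent, horizontal axis) in each of the 22 deaminase libraries, for the 3544 helicase sites and for all 382978 listed sites. The helicase bars run from 0.931% in MCP-ADAR2 DD-NLS without guide to 53.7% in the guide-free MCP-ADAR1 DD (E1008Q)-NES library and lie close to the bars of all sites.

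Most helicase sites lay in coding sequence. Coding sequence held 2606 sites (73.5%, against 65.3% of all sites in exons of a single gene), 3′ UTRs 652 (18.4%, against 29.1%), 5′ UTRs 45 (1.27%, against 4.06%) and exons of noncoding transcripts 241 (6.80%, against 1.49%). The genes with most sites were DDX17 with 307 and DHX30 with 254, then DDX3X with 179, DDX5 and DDX39B with 177 each and DHX9 with 139. DHX30, a helicase of mitochondrial RNA granules, stood out by density, with 28.2 listed sites per 100 adenosines of its reference transcript, against 22.97 in DDX39B, 19.3 in DDX56 and 18.9 in DDX17. Of its 254 sites 251 were coding and 197 changed the protein sequence. DDX6, which represses translation and promotes mRNA decay, had the opposite layout, with 74 of 89 sites in the 3′ UTR and 13 in coding sequence. DDX3X, a helicase of translation initiation, had 98 of 179 sites in its 3′ UTR. At the low end, DHX35 had 2 sites, DDX59 had 5 and DHX32 had 6. Depth per site is unknown, so the number of sites per gene could not be set against coverage.

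**Figure D2:**
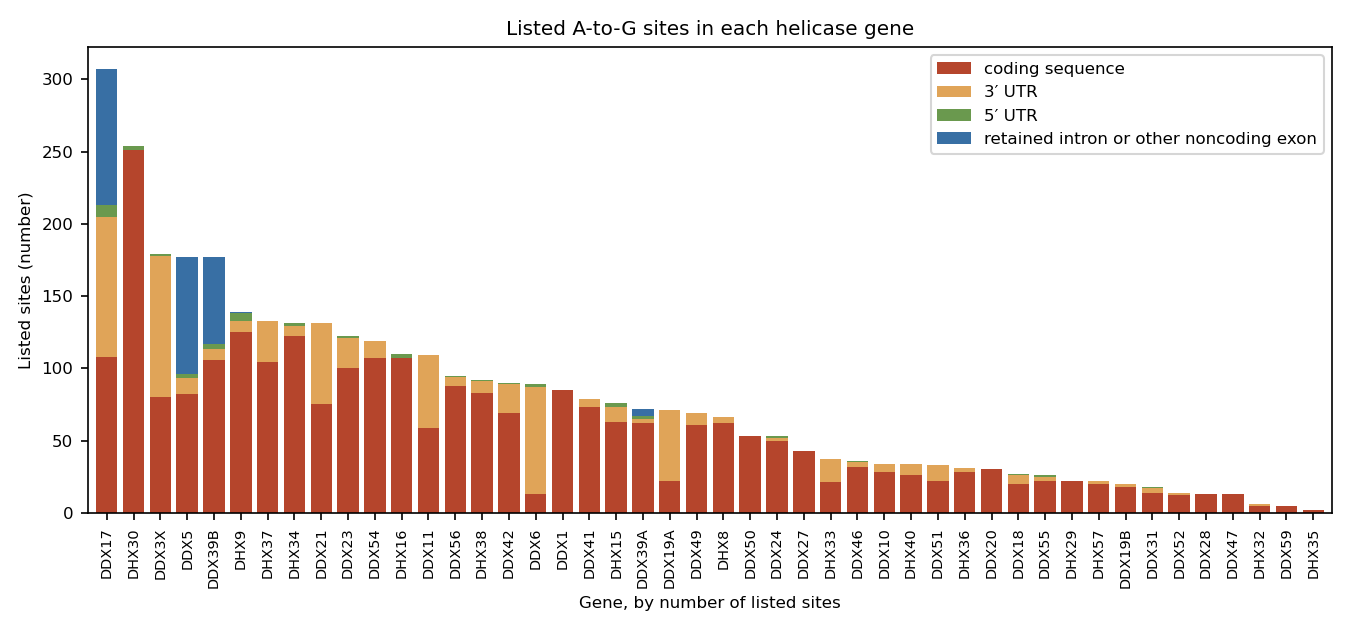
Number of listed sites (vertical axis) in each of the 46 helicase genes, stacked by region of the transcript. DDX17 has 307 sites, 94 of them in exons of noncoding transcripts, and DHX30 has 254, nearly all in coding sequence.

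By role, 14 splicing helicases held 1440 sites, 16 helicases of ribosome biogenesis held 898, and 8 of mRNA export, translation and decay held 628. DHX30 and DDX28, both mitochondrial, held 267, DHX9 alone stood for the helicases that bind double-stranded RNA with 139, and 5 other genes held 172. The mean share over 22 libraries was 3.03% in the splicing group, 3.39% in ribosome biogenesis, 3.73% in export, translation and decay, 2.88% in the mitochondrial group, 2.12% at DHX9 and 4.00% in the others. Sites called in 11 or more libraries made up 6.46%, 4.57%, 5.25%, 8.24%, 9.35% and 1.16% of these groups in the same order. DHX9 thus had the lowest mean share and the highest fraction of widely called sites among these groups, but it is 1 gene. Other single genes went further on each measure. DDX21 had a mean share of 1.59%, and DDX41 had 10 of 79 sites called in 11 or more libraries, against 13 of 139 at DHX9.

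Of 2599 sites in annotated codons, 1881 (72.4%) changed the residue, against 73.8% of all coding sites in a single gene, 710 were synonymous, 7 lay in stop codons and 1 in a start codon. Lysine to arginine was the most frequent change with 398 sites, then glutamine to arginine with 256, threonine to alanine with 167, serine to glycine with 166 and tyrosine to cysteine with 165. A G followed the edited A at 58.4% of helicase sites, against 58.7% of listed sites and 30.1% of all adenosines of transcripts with a listed site. A G preceded it at 11.7%, against 12.1% of listed sites and 28.1% of adenosines. Among the 204 sites called in 11 or more libraries, a preceding G was rarer still at 2.94%, a preceding U stood at 33.8%, and the triplet AAG, at 22.6% of all helicase sites, reached 33.3%. In all 10 matched pairs the sites called by the E-to-Q enzyme had a preceding G more often and a following G less often than those called by the wild-type enzyme. For MCP-ADAR1 DD-NLS with guide, a preceding G stood at 7.94% of sites called with E1008Q and 1.03% with wild type, and a following G at 59.1% with E1008Q and 69.2% with wild type.

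The 10 sites with the largest mean rise above untransfected cells lay in 8 genes, and the untransfected mean at each was at or below 0.366%. The largest rise was in the last exon of DHX34, a helicase of nonsense-mediated decay, 3′ UTR position 47382172, where the share was 17.1% at the lowest of 22 libraries, 48.1% at the median and 77.3% at the highest, in full-length ADAR2 (E488Q) with guide. Its mean rise was 45.7 ± 15.8 percentage points (SD over 22 libraries), and 17 libraries called it. DDX6 3′ UTR position 118748643 came next with 9.57%, 40.8% and 70.1% and a rise of 40.9 ± 16.9 points, called in 21 libraries. Both carry the triplet UAG. Both were high under every carrier: at the DHX34 site full-length ADAR2 gave 77.3% and 42.5% as E488Q with and without guide and 35.1% and 28.1% as wild type with and without guide, and Cas13b gave 25.0% with and 46.2% without guide.

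Some other sites with large rises differed between carriers. In the labels' numbering all MCP libraries precede the full-length and Cas13b libraries, so carrier cannot be told apart from sample order. DHX8, which releases the spliced mRNA from the spliceosome, was edited at N840S at 28.2% to 71.9% in the 8 MCP-ADAR2 libraries (median 46.4%) and at 31.7% to 51.0% in the 8 MCP-ADAR1 libraries (median 40.9%). The same site was at 5.13% in full-length ADAR2 (E488Q) with guide and at 0 in the other 3 full-length libraries and both Cas13b libraries, so the carriers did not overlap. DDX23 E155E, in a helicase of the U5 snRNP, showed the same split, with 8.81% to 63.9% in the 16 MCP libraries, 0 in all 4 full-length libraries, and 0 with and 1.03% without guide in Cas13b. DDX17 S649G lay at 6.87% at the lowest, 29.2% at the median and 51.7% at the highest of 22 libraries, the lowest and the highest both in full-length ADAR2. DHX38 Q904R, in the helicase of the later splicing step, had a rise of 31.7 ± 12.8 points and DHX40 V361V one of 31.1 ± 15.8 points. DHX30 Y1024C followed with 28.0 ± 13.8 points, DDX6 3′ UTR position 118750846 with 26.1 ± 16.3 and DHX34 K774R with 26.0 ± 12.2. No neighbours in this ranking differed by more than their SDs over libraries.

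**Figure D3:**
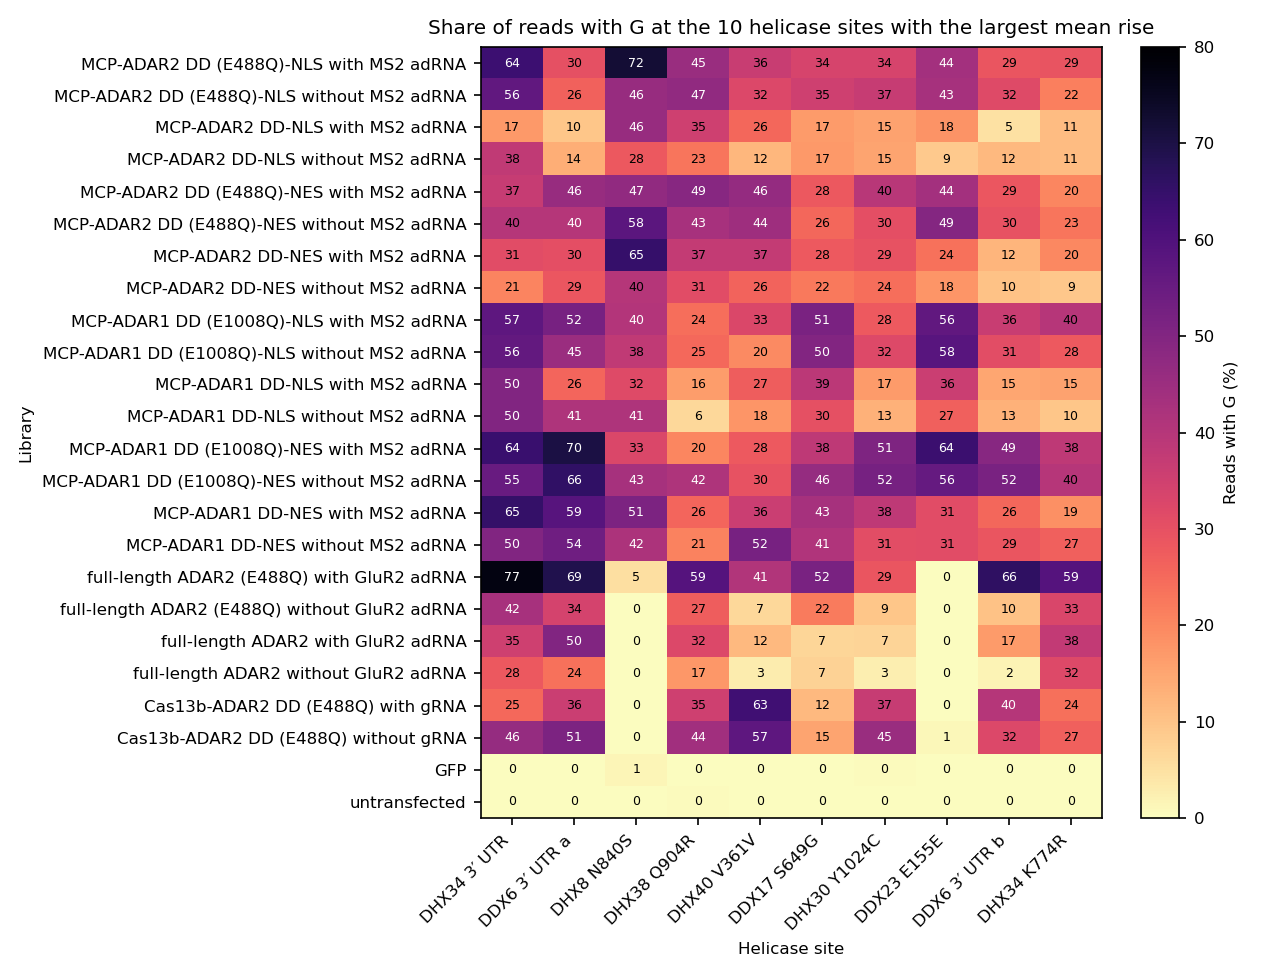
Share of reads with G (percent, colour) at the 10 helicase sites with the largest mean rise, in 22 deaminase libraries, GFP and the untransfected mean, with DDX6 sites a and b at positions 118748643 and 118750846. DHX34 3′ UTR and DDX6 3′ UTR are high in nearly every deaminase library, whereas DHX8 N840S and DDX23 E155E are at or near 0 in the full-length and Cas13b libraries.

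The mean share over the helicase sites was higher with E-to-Q in all 10 matched pairs. It was 4.32% with the E-to-Q enzyme and 2.04% with wild type, a difference of 2.28 ± 1.45 points (SD over 10 pairs), from 0.669 points in MCP-ADAR2 DD-NES with guide to 5.51 in full-length ADAR2 with guide. Over all sites the mean difference was 3.18 points. Called sites were 3.72 times as many on average, from 1.60 to 8.18 times. In the 16 MCP libraries limma, with Benjamini-Hochberg adjustment over 382978 sites, called 1163 helicase sites higher with E-to-Q (32.8%, against 39.7% of all sites) and 37 lower (1.04%, against 0.72%). At an unadjusted p under 0.05 there were 1525 in either direction, against 49.6% of all sites. The median difference was 0.88 points at helicase sites and 1.57 at all sites. Ribosome biogenesis had the highest share called higher, with 373 of 898 sites (41.5%, near the 39.7% of all sites) against 10 lower. The 5 other genes had the lowest, with 35 of 172 (20.3%) against 2 lower. The splicing group had 463 higher (32.2%) and 17 lower, and export, translation and decay had 190 (30.3%) and 4. The mitochondrial group had 69 (25.8%) and 1, and DHX9 had 33 (23.7%) and 3. Sites called higher had a preceding G at 13.8% and a following G at 49.5%, while those with no call had them at 10.9% and 62.7%.

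The largest rise with E-to-Q was at DHX8 D849G, in the same exon as N840S. Its shares were 16.4% to 47.1% in the 8 E-to-Q libraries and 0 to 11.1% in the 8 wild-type libraries, with medians of 39.0% and 3.79%, so the groups did not overlap. The difference was 30.9 ± 13.2 points (SD over 8 pairs; limma, Benjamini-Hochberg adjusted p = 0.00011). DDX23 E155E separated as fully, with 43.0% to 63.9% in E-to-Q and 8.81% to 36.2% in wild type and a difference of 27.6 ± 5.77 points (limma adjusted p = 1.07e-05). At DDX3X K138K the ranges overlapped slightly, with 17.0% at the lowest, 28.7% at the median and 57.2% at the highest E-to-Q library and 3.09%, 8.10% and 17.1% in wild type, a difference of 23.7 ± 10.8 points (limma adjusted p = 1.71e-05). DHX36, which resolves G-quadruplexes, rose at I307V by 22.8 ± 9.496 points (limma adjusted p = 8.53e-05) to 20.2% to 50.4%, against 4.10% to 30.1% in wild type, so the ranges overlapped. DDX6 3′ UTR position 118750421 rose by 22.1 ± 4.87 points (limma adjusted p = 2.93e-05) to 23.4% to 37.9%, against 2.04% to 17.8%.

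Among the sites called lower, 4 fell in 8 of 8 pairs. At DHX16 S426S, which lies in motif I upstream of its lysine codon, the E-to-Q libraries had 0 to 2.13% (median 1.47%) and the wild-type libraries 0.990% to 14.5% (median 5.02%), and the share fell by 4.32 ± 4.14 points (limma adjusted p = 0.00473). A site in the DHX9 3′ UTR, position 182887644, fell by 3.77 points (limma adjusted p = 0.0377), with 0 to 11.3% in E-to-Q and 0.355% to 22.2% in wild type. DDX17 V379V fell by 1.48 points (limma adjusted p = 0.00505) and DDX39B E203E, where another gene overlaps, by 1.00 (limma adjusted p = 0.0253). All 4 overlapped between the groups. The DHX9 call was lost (adjusted p 0.0565 to 0.076) without any 1 of 9 libraries: the MCP-ADAR1 ones except E1008Q-NES without guide and both wild-type NLS libraries, and the E488Q-NES and wild-type NLS libraries of MCP-ADAR2, each with and without guide. The DDX39B call was lost (adjusted p 0.0505 to 0.0552) without MCP-ADAR1 DD (E1008Q)-NES with guide, MCP-ADAR1 DD (E1008Q)-NLS without guide or MCP-ADAR2 DD (E488Q)-NLS without guide.

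**Figure D4:**
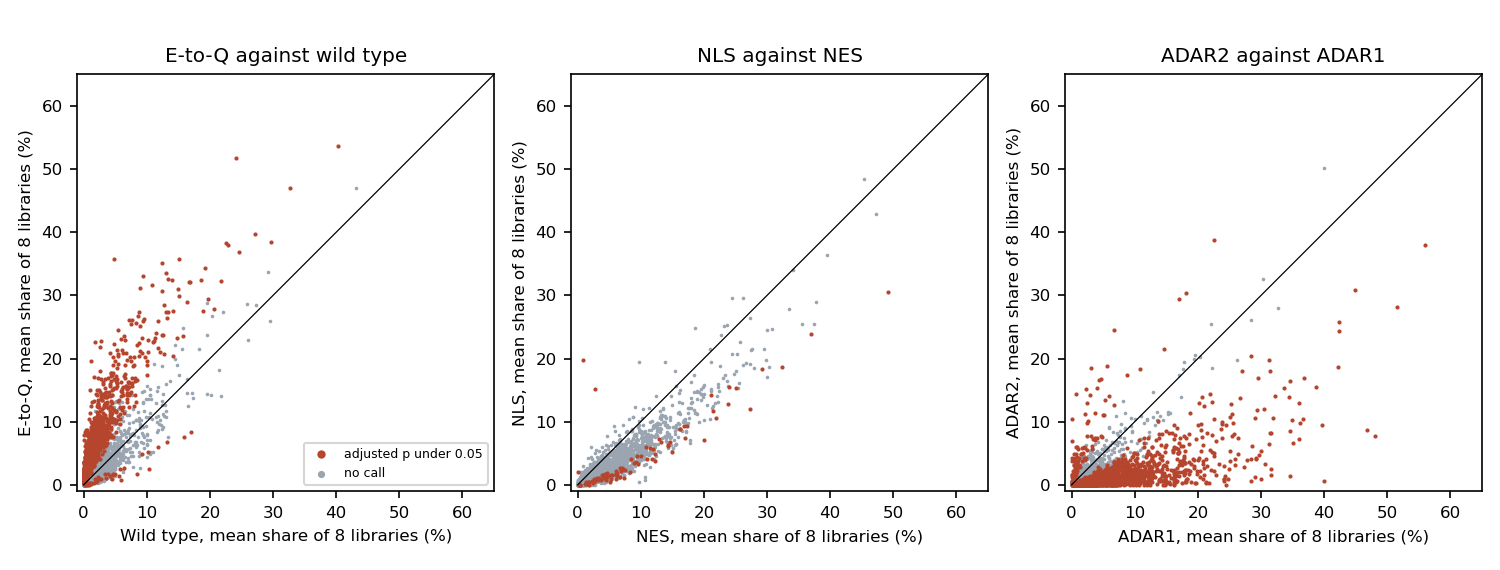
Mean share (percent) of each helicase site in 8 MCP libraries against the 8 that differ in E-to-Q substitution (left, E-to-Q on the vertical axis), signal (middle, NLS vertical) and enzyme (right, ADAR2 vertical), with limma calls in colour. Points lie mostly above the diagonal for E-to-Q and below it for NLS and ADAR2.

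The mean share over the helicase sites was lower with NLS than with NES in 7 of 8 pairs. The mean share was 2.48% with NLS and 4.05% with NES, a difference of -1.57 ± 1.58 points (SD over 8 pairs), from -3.90 points in MCP-ADAR1 DD (E1008Q) without guide to 0.142 in MCP-ADAR2 DD (E488Q) with guide. The 4 ADAR1 pairs ranged from -3.90 to -2.23 points and the 4 ADAR2 pairs from -0.750 to 0.142. limma called 3 helicase sites higher with NLS (0.0847%, against 0.0397% of all sites) and 91 lower (2.57%, against 3.76%), 94 in either direction (against 3.8%). The median difference was -1.04 points at helicase sites and -1.46 at all sites. With each matched pair of libraries as a block limma called 0 helicase sites, as it did on the shares themselves, while 840 had an unadjusted p under 0.05 without the block (against 30.2% of all sites). The count of 94 calls fell to between 9 and 29 without any 1 of the 8 MCP-ADAR1 libraries and to 25 without MCP-ADAR2 DD-NES with guide. It was 53 without MCP-ADAR2 DD-NLS with guide and 146 without MCP-ADAR2 DD-NLS without guide.

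The 3 sites called higher with NLS lie in 3 genes. DDX23 K245R was at 3.07% to 38.3% in the 8 NLS libraries (median 18.6%) and 0 to 2.24% in the 8 NES libraries (median 0.571%), without overlap. The difference was 18.9 ± 14.6 points (limma adjusted p = 0.0182), with E155E in the same protein showing no such order, at medians of 39.6% with NLS and 37.4% with NES. A site in a retained intron of DDX17, position 38489683, was at 6.00% to 27.6% with NLS and 1.33% to 6.25% with NES, medians 14.8% and 2.59%, and differed by 12.3 ± 6.29 points (limma adjusted p = 0.0182). DDX28 Q142R, named after its values were seen, was at 0 to 6.12% with NLS and at 0 in all 8 NES libraries, and was higher in 6 of 8 pairs (limma adjusted p = 0.0449).

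Among the falls with NLS, 4 of the 5 largest carry UAG, the triplet of 9.05% of helicase sites and 8.65% of listed sites. These 5 were picked by the size of the fall, so the count is a description. DDX6 3′ UTR position 118748643 had 9.57%, 28.3% and 52.0% as lowest, median and highest with NLS and 28.6%, 49.7% and 70.1% with NES, and fell by 18.6 ± 6.53 points (limma adjusted p = 0.0174). DDX19A, a helicase of mRNA export at the nuclear pore, fell by 13.8 ± 8.48 points at its 3′ UTR position 70372738 (limma adjusted p = 0.024), with 4.55% to 36.9% in NLS and 9.74% to 55.6% in NES libraries. DHX33 3′ UTR position 5443365 fell by 12.9 points (limma adjusted p = 0.0371), DHX30 L127L by 11.1 (limma adjusted p = 0.0499) and DHX36 I307V by 10.9 (limma adjusted p = 0.0498). All 5 fell in 8 of 8 pairs, and all overlapped between the groups. Single libraries ended 4 of these calls. DDX19A was lost (adjusted p 0.051 to 0.0532) without MCP-ADAR1 DD (E1008Q)-NES, DD (E1008Q)-NLS or DD-NES, each without guide, or DD-NLS with guide. DHX33 was lost (0.056 to 0.0762) without any MCP-ADAR1 library or without MCP-ADAR2 DD-NES with guide. DHX30 (0.0542 to 0.099) and DHX36 (0.0521 to 0.0997) were lost without any 1 of 13 libraries, the exceptions being the E488Q-NES libraries and the wild-type NLS library without guide of MCP-ADAR2.

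The mean share over the helicase sites was lower with MCP-ADAR2 than with MCP-ADAR1 in all 8 pairs. The mean share was 1.59% with ADAR2 and 4.94% with ADAR1, a difference of -3.34 ± 1.81 points (SD over 8 pairs). limma called 98 helicase sites higher with ADAR2 (2.77%, against 2.6% of all sites) and 2288 lower (64.6%, against 66%). At an unadjusted p under 0.05 there were 2478 in either direction, against 71.6% of all sites. The median difference was -2.03 points at helicase sites and -2.68 at all sites. Lower calls made up 61.0% to 69.8% of each role group, with 913 in splicing, 590 in ribosome biogenesis, 410 in export, translation and decay, 163 in the mitochondrial group, 97 at DHX9 and 115 in the others, and the counts called higher were 42, 25, 16, 8, 7 and 0 in that order.

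The 5 largest rises with ADAR2 lie in splicing and ribosome biogenesis helicases, which hold 1440 and 898 of the 3544 sites. Calls higher with ADAR2 made up 2.92% and 2.78% of these groups, against 2.77% of all helicase sites. DHX16, which drives the spliceosome into its first step, had a 5′ UTR site at position 30672928 with 9.72% to 38.1% in ADAR2 (median 23.6%) and 0 to 13.1% in ADAR1 libraries (median 7.36%), a difference of 17.8 ± 6.39 points (limma adjusted p = 4.97e-05). DHX38 Q904R had 23.1% to 48.8% with ADAR2 and 6.48% to 41.5% with ADAR1, a difference of 16.3 ± 8.51 points (limma adjusted p = 0.000924). These ranges overlapped at both sites. DDX41 V487V differed by 15.4 ± 9.02 points (limma adjusted p = 7.14e-05) and DDX10 T115A by 13.2 ± 7.59 (limma adjusted p = 0.000339). DDX49 K100K, in a helicase of rRNA processing, did not overlap between the enzymes, with 2.99% to 26.1% in ADAR2 (median 14.4%) and 0 to 2.86% in ADAR1 libraries (median 0), and its difference was 13.6 ± 7.12 points (limma adjusted p = 2.75e-06).

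The largest falls with ADAR2 were wider. DDX11 3′ UTR position 31104663 was at 4.84% to 15.4% with ADAR2 (median 6.98%) and 35.2% to 55.1% with ADAR1 (median 49.1%), and fell by 40.4 ± 7.25 points (limma adjusted p = 4.51e-07). DHX57 V593V was at 0 to 2.38% with ADAR2 and 15.8% to 61.4% with ADAR1 and fell by 39.5 ± 18.6 points (limma adjusted p = 2.76e-06). DHX9, which unwinds double-stranded RNA, carried a pair of neighbouring edited adenosines in codon 280. None of these sites overlapped between the enzymes. The synonymous site Q280Q was at 4.55% to 12.7% with ADAR2 and 39.3% to 57.0% with ADAR1 and fell by 38.0 ± 6.81 points (limma adjusted p = 3.85e-07). The base before it, which gives Q280R, was at 0 to 7.78% and 23.0% to 48.9% and fell by 33.2 ± 10.2 points (limma adjusted p = 1.17e-06). Both were at 2.40% or below in all full-length and Cas13b libraries. A site in a retained intron of DDX39A, position 14409514, had ranges that overlapped, at 3.70% to 18.6% with ADAR2 and 12.1% to 56.2% with ADAR1, and fell by 30.2 ± 11.1 points (limma adjusted p = 9.46e-06).

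Guides gave no common direction at the helicase sites. The mean share was 3.47% with guide and 3.02% without, a difference of 0.459 ± 1.70 points (SD over 11 pairs), higher in 7 pairs. The extremes were a difference of 4.83 points in full-length ADAR2 (E488Q) and a difference of -2.177 points in Cas13b, and the 8 MCP pairs lay between -0.899 and 0.768. Without the full-length pairs the mean difference was -0.0598 points. limma called 0 helicase sites at the adjusted threshold of 0.05 for the guide in the MCP libraries, against 0.000783% of all sites, and 101 at an unadjusted p under 0.05, against 3.05% of all sites.

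The effect of E-to-Q differed between the enzymes at 106 helicase sites (limma interaction, adjusted over all sites; 3.69% of all sites), at 101 of them with the more positive effect in ADAR1. The effect of the signal differed between the enzymes at 58 helicase sites (1.59% of all sites), at 56 of them with the more negative NLS effect in ADAR1. No helicase site had a signal effect that differed with E-to-Q (0.00183% of all sites), and 131 of 3544 did at an unadjusted p under 0.05, against 15162 of 382978 sites. These models were chosen after the data were seen. The mean share was 1.59% with MCP-ADAR2 and 4.94% with MCP-ADAR1, and the part of low shares in these counts was not tested.

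Carriers differed in the helicase sites they called, at shares not far from those over all sites. The pooled libraries differed in number and variant, and Cas13b was E488Q only. Full-length ADAR2 called 1309 helicase sites in any of 4 libraries (36.9%, against 33.3% of all sites), MCP-ADAR2 478 in any of 8 (13.5%, against 15.6%), MCP-ADAR1 2589 in any of 8 (73.1%, against 77.7%) and Cas13b 1138 in either of 2 (32.1%, against 30.3%). Full-length ADAR2 and MCP-ADAR2 shared 259 sites, 19.8% of the full-length list (against 24.3% over all sites) and 54.2% of the MCP-ADAR2 list (against 51.9%). Full-length E488Q with guide alone called 1300 of the 1309 full-length sites. Calls in full-length libraries and in no other were made at 627 helicase sites (17.7%, against 14.4% of all sites). Of 276 helicase sites called in 8 or more of the 16 MCP libraries, a limit chosen after the values were seen, 47 (17.0%) were called in no full-length or Cas13b library, against 14.3% of all such sites. Coding sequence made up 48.0% to 66.0% of the helicase sites called in each full-length library and 75.7% to 88.7% in each MCP and Cas13b library, and the same split stood over all sites, at 37.3% to 56.3% and 66.3% to 75.6%.

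The largest gaps in favour of full-length ADAR2 were in DDX17 and DDX6. At DDX17 position 38491774, in a retained intron, full-length E488Q gave 83.8% with and 40.5% without guide, full-length wild type 8.57% with and 17.9% without, and the 4 MCP-ADAR2 E488Q libraries averaged 0.714%. At position 38491057 of the same intron, full-length E488Q gave 75.7% and 38.9% and wild type 8.82% and 6.54%, each with and without guide, and the MCP-ADAR2 E488Q mean was 0. DDX6 3′ UTR position 118750989 had 69.0% and 45.8% in E488Q and 33.9% and 9.76% in wild type, with a mean of 1.55% in MCP-ADAR2 E488Q. The widest gaps the other way were at DHX8 N840S, with means of 2.56% in full-length E488Q and 55.6% in MCP-ADAR2 E488Q, DDX23 E155E, with 0 and 44.9%, and DHX38 Q36R, with 3.06% and 33.8%. Cas13b exceeded MCP-ADAR2 E488Q most at DHX34 3′ UTR position 47382565, with 18.2% with and 33.3% without guide against a mean of 0. However, GFP alone gave 5.56% at this site, and only 1 library called it. DDX18 T418A, called in 14 libraries, had 41.6% with and 47.8% without guide in Cas13b, against a mean of 19.2%. DHX37 3′ UTR position 124947239, called in 7 libraries, had 20.0% and 39.7%, against 6.06%, with 2.49% in untransfected cells. With 1 library per condition these gaps have no replicate check.

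Retained introns of DDX17 and DDX5, paralogous nuclear helicases of splicing and transcription, carried most of the sites outside mature coding transcripts. All 241 sites in noncoding exons lay in introns of the coding transcript, and 240 in transcripts annotated as retained introns, 94 in DDX17, 81 in DDX5, 60 in DDX39B and 5 in DDX39A. Full-length ADAR2 (E488Q) with guide called 91 of the 94 DDX17 sites, at a mean share of 21.5%, a median of 16.5% and a highest of 83.8%. Without guide it called 22 at a mean of 4.61%, and full-length wild type called 5 with and 5 without guide, at 2.09% and 1.63%. In the MCP-ADAR1 libraries 0 to 7 of the 94 were called, at means of 0.339% to 1.22%, in MCP-ADAR2 0 or 1, at 0.212% to 0.798%, and in Cas13b none, at 0.171% with and 0.143% without guide. Of the 94 sites 85 were called in full-length libraries alone. Since a site is listed only where some library passed the authors' test, these 85 had to be high there, and the means above are a description. The mean over coding sites of DDX17 in full-length E488Q with guide was 9.08%, against 0.612% to 4.60% in the other 21 libraries.

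DDX5 was less one-sided. Full-length E488Q called 65 of its 81 intron sites with guide, at a mean of 13.9%, and 34 without, at 6.53%, and full-length wild type called 8 with and 8 without, at 2.77% and 1.41%. MCP-ADAR1 called 39 in any of 8 libraries, at means of 1.60% to 4.50%, MCP-ADAR2 called 12, at 0.432% to 2.67%, and Cas13b 9, at 0.229% with and 1.23% without guide. The MCP-ADAR1 range thus overlapped that of full-length ADAR2, and 40 of the 81 sites were called in full-length libraries alone, with the same limit. In DDX39B, which assembles the spliceosome and the export complex, 17 of 60 intron sites were called in any of 4 full-length libraries and 49 in any of 8 MCP-ADAR1 libraries. Their mean shares overlapped, at 5.24% and 2.50% in full-length E488Q with and without guide, 1.24% and 0.600% in full-length wild type with and without guide, and 1.59% to 8.33% in MCP-ADAR1. How much unspliced RNA each library held is not known from shares, and its part was not tested.

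**Figure D5:**
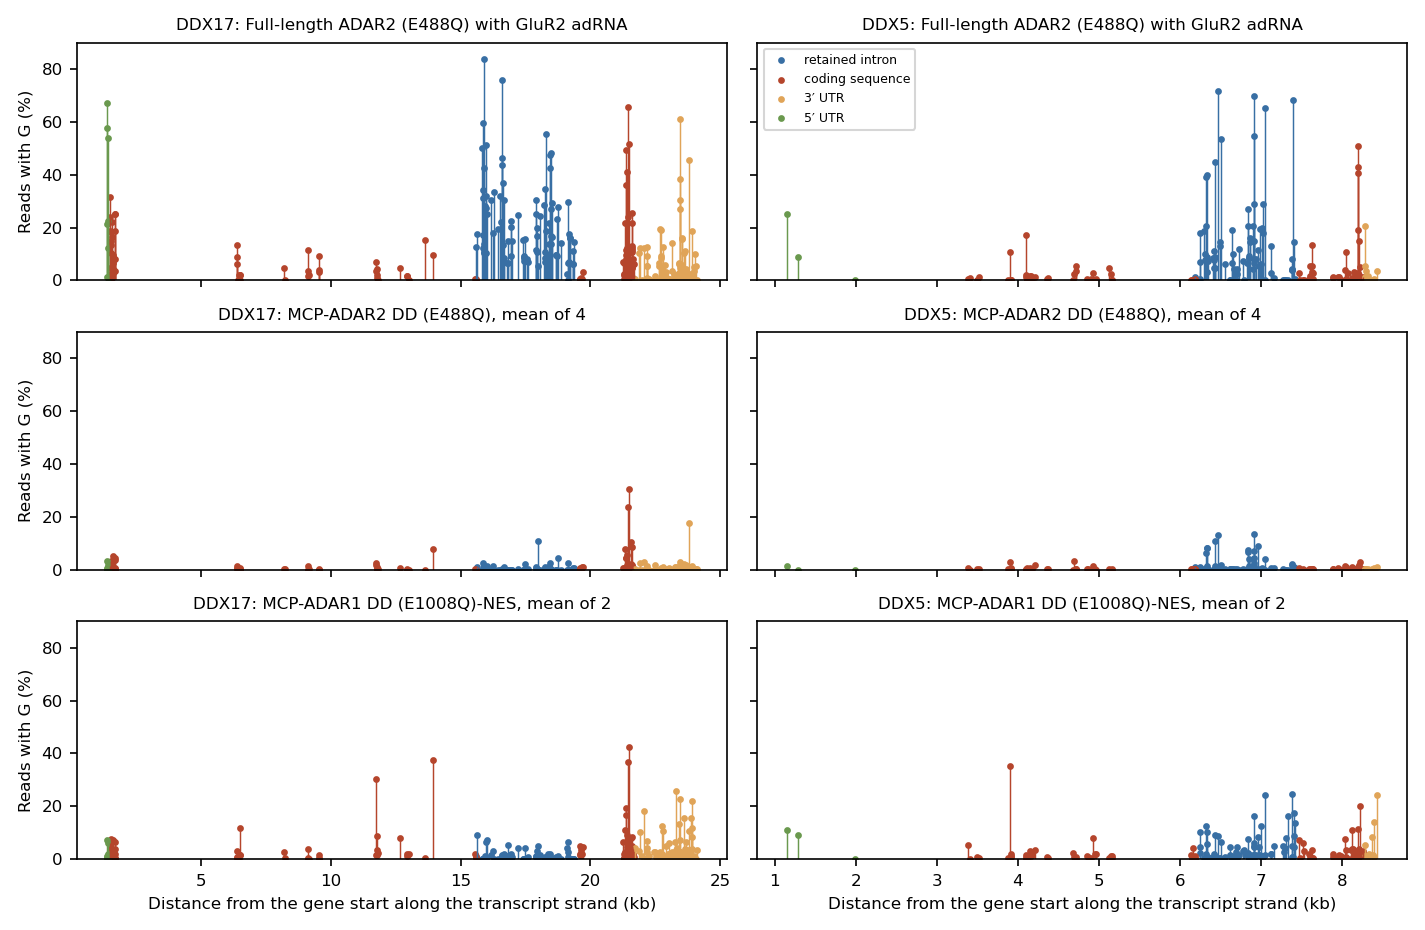
Share of reads with G (percent, vertical axis) at each listed site of DDX17 and DDX5 against its distance from the gene start (kb), for full-length ADAR2 (E488Q) with guide, the mean of 4 MCP-ADAR2 E488Q libraries and the mean of 2 MCP-ADAR1 E1008Q-NES libraries. In the retained introns of DDX17 full-length points reach 83.8%, whereas the MCP means lie far lower.

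The helicase motifs were edited at 69 sites in 27 of the 41 genes, 51 of them recoding. Motifs I, II, III and VI were searched by their letters, and motif V was not searched. Some positions of these motifs were free in the search, so not every recoding site changes a fixed residue. Listed sites made up 10.0% of the 690 adenosines in motif codons and 8.82% of the 28049 coding adenosines of these genes. The share was 10.3% in motif I, 6.37% in motif II, 15.2% in motif III (12 of 79) and 10.5% in motif VI. Motif I ends in a lysine followed by serine or threonine, and that lysine contacts the phosphates of ATP. Its codon held 15 recoding sites in 14 of 41 genes, 13 to arginine and 2 to glutamate, with mean shares over 22 libraries of 0.434% to 20.2% (median 2.16%). Calls in 11 or more libraries were made at 3 of the 15, DDX41 K231R, DHX16 K428R and DDX49 K52R. Such calls were made at 6.79% of helicase sites in coding sequence and 6.63% of all sites. Other lysine codons were not compared, so the count is a description.

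DDX41, found in the spliceosome, had the motif site with the highest mean share, K231R, at 0.990% at the lowest, 18.7% at the median and 50.5% at the highest of 22 libraries. With E-to-Q it was at 16.7% to 50.5%, against 0.990% to 21.4% with wild type, a difference of 20.7 ± 5.78 points (limma adjusted p = 8.97e-06). With ADAR2 it was at 0.990% to 22.2%, against 16.8% to 50.5% with ADAR1, and fell by 21.3 ± 5.68 points (limma adjusted p = 1.47e-06). Both pairs of ranges overlapped, and all 8 pairs went the same way in each. The other adenosine of this codon, K231E, had a mean of 3.45% and was called in 1 library. DHX16 K428R was at 36.2% with and 36.9% without guide in Cas13b. In full-length ADAR2 with guide it was at 27.2% as E488Q and 2% as wild type, and without guide at 0 as both. In the MCP libraries it rose to 17.7% to 35.6% with E-to-Q, against 5.38% to 24.3% with wild type (limma adjusted p = 0.00139). DHX34 K489R, at a position of motif VI that the searched letters leave free, was called in 14 libraries and reached 45.8% in full-length E488Q with guide. DDX10 T115A and DHX34 T187A, both in motif I, reached 38.6% and 27.7%, the DHX34 site in full-length E488Q with guide and at 0 to 1.69% in all MCP libraries. A recoded share of reads says nothing of the amount or activity of the protein.

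Stop codons of 6 helicases were edited. DDX39B *429W, at which the stop is read as tryptophan, was called in 17 libraries, with 0.128% at the lowest, 4.60% at the median and 36.7% at the highest. MCP-ADAR2 gave 0.351% to 4.38% and MCP-ADAR1 6.47% to 36.7%, without overlap (limma adjusted p = 7.31e-06). Its position also lies in an exon of another gene. DHX34 *1144W was at 54.0% in full-length E488Q with guide, 22.4% without, and 3.28% with and 0 without guide in full-length wild type. MCP-ADAR1 gave 5.41% to 36.8% there and MCP-ADAR2 0 to 5.13%, without overlap (limma adjusted p = 4.29e-05), and 5 libraries called the site. DDX51 *667W reached 29.4% and was called in 1 library, DHX8 *1221W reached 16.3% and was called in 2, and DDX49 *484W reached 16.2% and was called in 5. In the stop codon of DDX39A, codon 428, both adenosines were edited, at up to 30.8% (position 14408937, called in 14 libraries) and 17.2% (position 14408936, called in 8), and either change alone leaves a stop codon. The start codon of DDX39B (M1V) reached 1.60% and was called in 1 library.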

How the data were processed

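Libraries of 30 samples were made from 300 ng of RNA and read over 100 bp, per the labels' protocols. STAR 2.6.0c, SAMtools, bcl2fastq 2.18.0.12 and GRCh38.p12 were used, per the submitters' processing notes, which state no settings. The authors deposited 2 tables: the fraction of reads with G per site and sample, and adjusted p-values for the same sites, per the file headers. For the authors' p-values, the test and its control were not given in the sources used here. No column was tied to untransfected run 1, which was therefore left out. Depth is unknown, and no counting interval could be given.

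The planned test of read counts was not possible, so its fallback was used: shares of the 16 MCP libraries were transformed to the arcsine of their square root and fitted with limma 3.58.1 in R 4.3.3. The model held additive terms for enzyme, variant, signal and guide and let the variance follow intensity. The p-values were adjusted by Benjamini-Hochberg over 382978 sites per factor, with a threshold of 0.05. Since each combination is 1 library, 11 residual degrees of freedom give the spread, which includes any interaction. Positions of single genes were adenosine on the transcript strand at 99.86% of 352930 sites. Sites were annotated with GENCODE 29 using bedtools 2.31.1, Python 3.11.15, numpy 2.4.6 and pandas 2.3.3, and plotted with matplotlib 3.10.9. Reference transcripts were the APPRIS principal, CCDS, basic and then longest ones. The fit was also run on simulated data with normal noise and an additive E-to-Q effect alone. That run could not show whether the calls hold on shares with zeros and interactions.

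The genes, role lists, named-site rules and alternatives were chosen with earlier results of these data known. Named were the genes with most sites, the 10 sites with the largest mean rise, the 5 largest rises and falls per factor that passed the threshold in 8 of 8 pairs, the 5 motif sites that change a residue with the highest share in any library, start and stop codon sites, and the 3 largest gaps per carrier in each direction. No site had an untransfected mean of 5% or more. Interactions, the omission of single libraries and the omission of carriers from the guide pairs were added after the data were seen. Values over lists are descriptions without a test.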

Additional observations from a re-analysis of the deposited data

Results flagged for a closer look

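At 6 helicase sites the effect of a factor differed most between the enzymes in the 16 MCP libraries. Each was tested as a limma interaction with Benjamini-Hochberg adjustment over all sites, and means are ± SD over 4 libraries. For E-to-Q these were DDX6 3′ UTR position 118750230, DDX41 R249G and DDX5 I396V. The DDX6 site was at 7.26 ± 2.17% with E1008Q and at 0 in all wild-type ADAR1 libraries, and at 0 in all MCP-ADAR2 libraries (adjusted p = 0.000892). DDX41 R249G was at 6.97 ± 2.14% with E1008Q and at 0 in the other 12 libraries (adjusted p = 0.001203). DDX5 I396V was at 3.82 ± 0.813% with E1008Q and 0.134 ± 0.0128% with wild-type ADAR1, and at 0.0329 ± 0.0658% with E488Q and 0.0915 ± 0.0618% with wild-type ADAR2 (adjusted p = 0.004356).

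For the signal these were DDX56 A483A, DHX37 3′ UTR position 124946994 and DDX11 3′ UTR position 31104613. DDX56 A483A was at 0.111 ± 0.222% with NLS and 5.23 ± 1.04% with NES in ADAR1, and at 0.1 ± 0.2% with NLS and 0.106 ± 0.213% with NES in ADAR2 (adjusted p = 0.008212). The DHX37 site was at 0 with NLS and 18.9 ± 7.04% with NES in ADAR1, and at 0.758 ± 1.52% with NLS and 0.641 ± 1.28% with NES in ADAR2 (adjusted p = 0.01616). The DDX11 site was at 3.57 ± 1.96% with NLS and 10.9 ± 3.25% with NES in ADAR1, and at 2.12 ± 0.468% with NLS and 0.357 ± 0.714% with NES in ADAR2 (adjusted p = 0.02016). DDX11 has near-identical copies, so its values are uncertain.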

How the results depend on the processing

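The count of helicase sites called for E-to-Q was 1200 and stayed within 1.5 times of that except at an adjusted p under 0.01, where it was 632. For ADAR2 against ADAR1 it was 2386, and 1564 among sites with a share of at least 0.05 in at least 2 libraries. Calls for NLS against NES, 94, were the least stable: 158 with the enzyme and variant interaction added, 146 without the intensity trend, and 0 on the shares themselves, at an adjusted p under 0.01, and with the matched pairs as a block. With that block the counts were 1173 for E-to-Q, 2265 for ADAR2 and 0 for the guide. The labels share no replicate numbers, and the pairs are libraries that differ in 1 factor. Leaving out each library gave 969 to 1280 calls for E-to-Q, 9 to 146 for NLS, 2221 to 2400 for ADAR2 and 0 to 0 for the guide. The mean guide difference reversed to -0.0488 points in NES pairs only and to -0.0598 without the full-length pairs, and was 0.722 without the Cas13b pair. The cause was not tested in any of these cases. Of 26 differences named for single sites none reversed. The block ended the calls at all 7 NLS sites (adjusted p 0.0637 to 0.0788), and the shares themselves ended 9 calls, those 7, DHX9 3′ UTR and DDX39B E203E. The log2 scale with 0.01 added ended 2, DHX9 3′ UTR for E-to-Q (adjusted p 0.057) and DHX36 I307V for NLS (0.0594). Called sites per library had a median of 295, and 215 to 389 over the other thresholds and filters. Depth, and with it the smallest share that could be seen at a site, is unknown.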
